A study of Mus musculus with 96 samples.

Results

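The 35 genes described here encode the enzymes that make and salvage nucleotides and the one-carbon units they need, and they were picked by symbol from the 15895 rows of the expression table, where every one of the 35 was present. Fibroblasts from CF-1 mouse embryos of day 13 were starved of serum for 36 h in 0.5% FCS (fetal calf serum) and were then given 20% FCS. PolyA RNA was sequenced in 2 time courses that the labels name Cycle 1 (63 libraries used, from 1 h before serum to 38 h after) and Cycle 2 (32 libraries, from 1 h before serum to 27 h after). The libraries taken 1 h before serum and just before it, 2 in each time course, are called starved. Every library came from cells that had been starved, and all but the starved libraries from cells that were then re-fed. No library came from cells that kept growing or from cells left without serum over the same hours. Time after serum therefore cannot be told apart from time in culture. The labels do not say that the 2 time courses were separate embryo preparations. P-values therefore measure the spread between these libraries, which may in part be technical.

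Nucleotides are built from scratch or recovered from bases and nucleosides. The purine path starts from the sugar phosphate PRPP, runs through Ppat, Gart, Pfas, Paics, Adsl and Atic to IMP, and branches to GMP through Impdh1, Impdh2 and Gmps. The pyrimidine path runs through Cad, Dhodh and Umps to UMP, which Ctps and Ctps2 carry on to CTP. The folate enzymes Shmt1, Mthfd1 and Mthfd1l supply one-carbon units to purines and to thymidylate. A smaller set of enzymes, among them the ribonucleotide reductase subunits Rrm1 and Rrm2, thymidine kinase Tk1 and thymidylate synthase Tyms, provides the deoxynucleotides (dNTPs) that DNA replication uses, and in cycling cells these are textbook genes of the G1 to S transition.

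The libraries held 4352437 to 12551592 reads on the table, as read back from the scaled values. Fibroblast markers were high throughout: the lowest of Col1a1, Col1a2, Col3a1, Vim, Thy1 and Pdgfrb in any library was 1855 (Pdgfrb). Of the markers of other cell types, Hbb-b1 had no row. Epcam, Pecam1, Cdh5 and Myog reached 0 in at least 1 library and the others did not. Des, of muscle, ran from 306 to 2131, and the neural Tubb3 and Sox10 from 25 to 332 and from 9.39 to 51. Kdr, of endothelium, ran from 23.5 to 176, and Krt8 and Cdh1, of epithelium, from 7.72 to 121 and from 1.76 to 66.1. Cd68, of macrophages, ran from 37.4 to 244, and Ptprc, of blood cells, from 2.62 to 91.4. Summed muscle markers were 591 to 673 in starved Cycle 1 and 1650 to 1663 in starved Cycle 2, and epithelial ones 151 to 180 and 49.6 to 55.2. Blood markers were 119 to 141 and 197 to 218, and neural ones 129.5 to 141 and 189.5 to 226. Endothelial ones overlapped (141 to 182 and 151 to 188). The part of other cell types in the results below was not tested. Summed fibroblast markers, 6 of 6 listed, ran from 323800 to 475100 in starved cells and from 158300 to 184800 at 25 to 27 h. At 15 to 18 h Col1a1, Col1a2, Col3a1 and Pdgfrb had fallen while Vim (log2 0.51) and Thy1 (0.74) had risen, and their part in the results below was not tested. Values are scaled read counts (every library scaled to the same total, not divided by gene length), so in these bulk cultures fewer cells of a kind and less RNA per cell cannot be told apart. The starved value of each course is the base of every fold change below unless another is named, log2 changes are of the value plus 1, and a gene is called where limma's adjusted p over all 15895 rows was under 0.05.

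**Figure D1:**
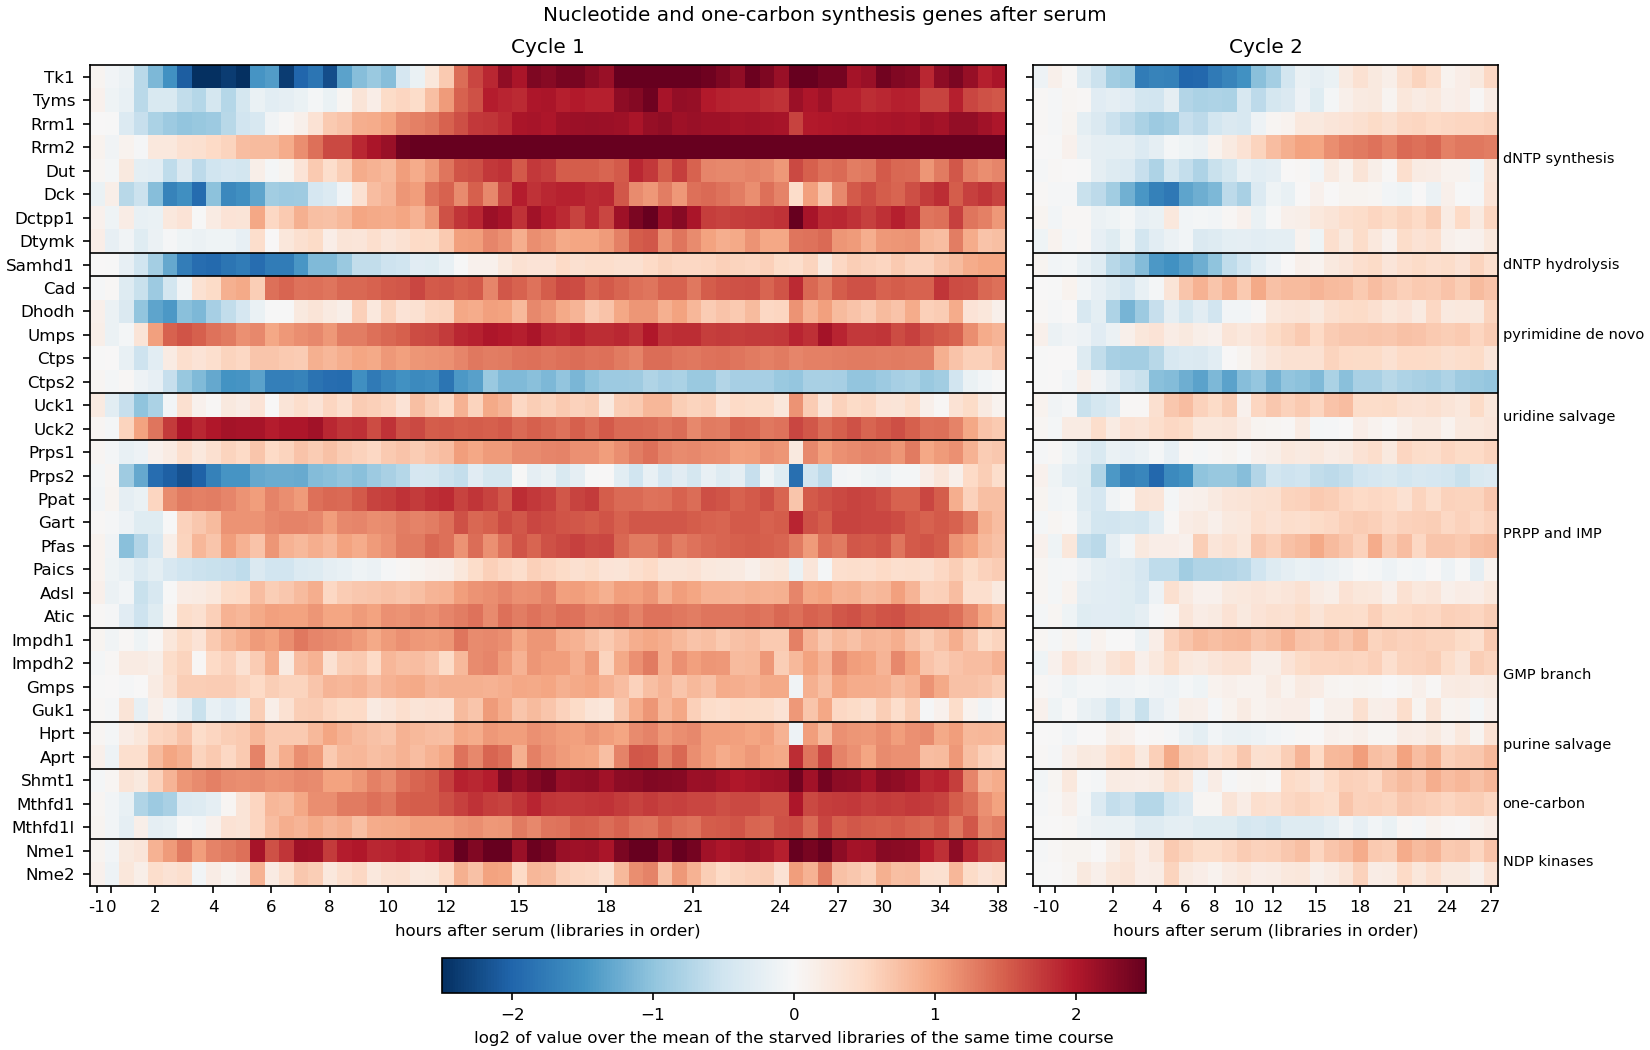
Colour shows the log2 of each value relative to its own course's starved mean (n = 2), for the 35 genes (rows, grouped by role) in every library (columns, in order of hours after serum). Tk1, Dck, Samhd1, Prps2 and Ctps2 are blue in the first hours, Uck2 is red from the first hours on, and the dNTP synthesis genes turn red later; the colours are paler in Cycle 2.

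At 4 to 6 h after serum, 13 of the 35 genes rose and 7 fell; without the Cycle 1 library just before serum, 8 rose. Over all genes, 21% rose and 40.4% fell in that comparison, and the median log2 change was 0.26 for the 35 genes and -0.26 for all genes. The 13 were Uck1, Uck2 and Aprt of salvage, Cad and Umps of pyrimidine synthesis, Ppat, Gart, Pfas and Atic on the way to IMP, Impdh1 and Impdh2 of the GMP branch, Shmt1 and Nme1. Over both courses together none of the 8 dNTP synthesis genes rose (0 by limma, 0 by edgeR, 0 at an unadjusted p under 0.05 in limma), and 2 of them fell. By course, Rrm2 changed by 0.69 (log2) in Cycle 1 and -0.13 in Cycle 2, and Dctpp1 by 0.35 and 0.01. The others of the 8 were below 0 in both courses. Another scaling moves this comparison: with scaling by the median of ratios the median of all genes went from -0.26 to -0.08, the share of called genes that rose went from 34.2% to 47.2%, and 18 of the 35 genes rose and 6 fell.

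Uck2, a uridine-cytidine kinase that salvages pyrimidine nucleosides, had the largest early rise of the 35 genes. Its starved values were 349 and 326 in Cycle 1 and 778 and 726 in Cycle 2, and the 6 libraries of whole hours at 4 to 6 h lay between 1024 and 1407 (median 1196). All 6 were above every starved library. The log2 change was 1.24 ± 0.20 (SE, adjusted p = 1.8e-06), with 2.01 in Cycle 1 and 0.48 in Cycle 2. As a running mean of 3 libraries (fewer at the ends), Uck2 was already 1.75-fold over the starved mean at 1 h in Cycle 1, the first library after serum there. It was highest at 5 h in both time courses, at 4.18-fold in Cycle 1 and 1.40-fold in Cycle 2. The gene lies on the reverse strand of mouse chromosome 1, at 169156221 to 169215258 in NCBIM37 (the assembly called mm9), and its promoter window is shown because it had the earliest onset of the 35 genes in Cycle 1 (in Cycle 2 it did not reach 1.5-fold):
Uck2, chr1:167285078-167285377, reverse strand: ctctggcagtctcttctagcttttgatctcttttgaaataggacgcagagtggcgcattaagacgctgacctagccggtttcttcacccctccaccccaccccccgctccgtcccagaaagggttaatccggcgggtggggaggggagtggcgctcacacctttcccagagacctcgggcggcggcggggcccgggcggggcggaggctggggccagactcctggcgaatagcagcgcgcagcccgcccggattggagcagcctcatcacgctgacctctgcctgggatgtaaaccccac

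The sequences here run from 250 bases before to 50 after the start site and come from RefSeq in build GRCm38.p6, 5′ to 3′ along the gene. Such windows were at hand for 33 of the 35 genes, all except Dhodh and Pfas. Capitals, where there are any, mark a match to TTTGGCGC, TTTCCCGC or TTTGGCGG (E2F-type motifs) or CACGTG (E-box) on either strand, and the motifs do not overlap each other in any window shown. Neither kind is in the 300 bases of Uck2. An E2F-type match was in the windows of 2 of the 33 genes (6.06%, against 2.39% of all 27025 genes in the table) and an E-box match in those of 6 (18.2%, against 8.09%).

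Nme1, a nucleoside diphosphate kinase, stood at 839 and 763 in starved Cycle 1 and at 1696 and 1758 in starved Cycle 2, and the 6 libraries at 4 to 6 h lay between 1899 and 2733. All of them were above every starved library. The log2 change was 0.95 ± 0.25 (SE, adjusted p = 0.0012). Shmt1, the cytosolic serine hydroxymethyltransferase that feeds one-carbon units into folate, lay at 97.7 and 106 in starved Cycle 1, at 180.3 and 195 in starved Cycle 2 and between 215 and 247 at 4 to 6 h, a log2 change of 0.73 ± 0.23 (adjusted p = 0.0065). Umps, which completes UMP, went from 413 and 338 in Cycle 1 and 693 and 574 in Cycle 2 to 718 to 969, a log2 change of 0.71 ± 0.18 (adjusted p = 0.00074). Aprt, the adenine salvage enzyme, was nearly level between the starved libraries (888, 749, 843 and 817) and lay between 1253 and 1593 at 4 to 6 h, a log2 change of 0.69 ± 0.14 (adjusted p = 5.8e-05). Groups did not overlap for any of these 4 genes. Of the 5 largest early rises, Aprt alone was as large in Cycle 2 (0.71) as in Cycle 1 (0.66).

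The other early rises were smaller. Impdh1, one of the enzymes that commit IMP to GMP, had a log2 change of 0.67 ± 0.09, and its paralog Impdh2 one of 0.46 ± 0.12. Within the path to IMP, Ppat (0.66), Pfas (0.52), Gart (0.51) and Atic (0.46) rose, while Adsl (0.32, adjusted p = 0.06) did not pass. Cad, the large protein that holds the first steps of pyrimidine synthesis, had a log2 change of 0.63 ± 0.18. Uck1 rose by 0.35, and it lost its call without the time course as a block. In Cycle 2 alone the changes of Gart (-0.02), Atic (0.10), Ppat (0.12) and Pfas (0.15) were near 0. The count over the 35 genes was 7 rises and 13 falls there, near the shares among all 15895 genes (2921 rises and 5209 falls). In Cycle 1 alone it was 19 and 7, against 3056 and 6184 of all genes.

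The 7 early falls had the same sign in both time courses. Tk1, on chromosome 11 at 117676840 to 117687406, salvages thymidine for DNA; its starved values were 133 and 120.4 in Cycle 1 and 330.1 and 393 in Cycle 2, and the 6 libraries at 4 to 6 h lay between 14.4 and 113. None reached a starved value. The log2 change was -2.06 ± 0.53 (SE, adjusted p = 0.0012), with -2.35 in Cycle 1 and -1.77 in Cycle 2. Of the 50-base windows of its longest coding transcript, 19.4% are found at 2 or more places in the genome (NCBIM37), so part of its count is uncertain.

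Samhd1 encodes the enzyme that breaks dNTPs down. Its 4 starved values were close to each other (873, 862, 871 and 790.3), and at 4 to 6 h it lay between 226 and 321. The log2 change was -1.62 ± 0.10 (adjusted p = 5.1e-15), and the 2 courses gave -1.81 and -1.44. Prps2, 1 of the 2 PRPP synthetases in the list, went from 210.4, 225, 257 and 222 to between 61.8 and 92.7, a log2 change of -1.56 ± 0.14 (adjusted p = 2.3e-11). Dck, which salvages deoxycytidine, fell by 1.36, Ctps2 by 1.30, Paics by 0.63 and Dhodh, the mitochondrial step of pyrimidine synthesis, by 0.41 on the log2 scale (adjusted p = 0.047, lost under the scaling by the median of ratios, by edgeR and without the block). Members of 1 path were thus called in opposite directions at 4 to 6 h. Within the 8 genes from PRPP to IMP 4 rose and 2 fell, and within the 5 of pyrimidine synthesis 2 rose and 2 fell. Of all genes 21% rose and 40.4% fell, so these falls were no more frequent than among all genes. The 4 rises toward IMP were near 0 in Cycle 2 alone.

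The hour of the low differed from gene to gene. After 3 h libraries lay closer together in Cycle 1 than in Cycle 2, so a mean of 3 libraries spans more time in Cycle 2. The running mean of 3 libraries was lowest for Samhd1 at 4 h in Cycle 1 (0.27 of the starved mean) and at 5 h in Cycle 2 (0.37), for Prps2 at 3 h in both (0.24 and 0.30), and for Dck at 3 h and 4 h (0.31 and 0.32). Tk1 was lowest at 4 h in Cycle 1 (0.14) and at 7 h in Cycle 2 (0.27). Ctps2 was lowest later, at 8 h in both, the last hour searched (0.27 and 0.42). In all, 6 genes in Cycle 1 and 5 in Cycle 2 went under 0.5 of their starved mean within 8 h. How many of all genes did so was not computed, so these counts have no background to stand against. Ccna2, a cyclin of S and G2 phase, and E2f1, a transcription factor of the G1 to S transition, were also lower at 4 to 6 h, with mean values of 373 and 1163 for Ccna2 in Cycles 1 and 2 (starved 797 and 2497).

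**Figure D2:**
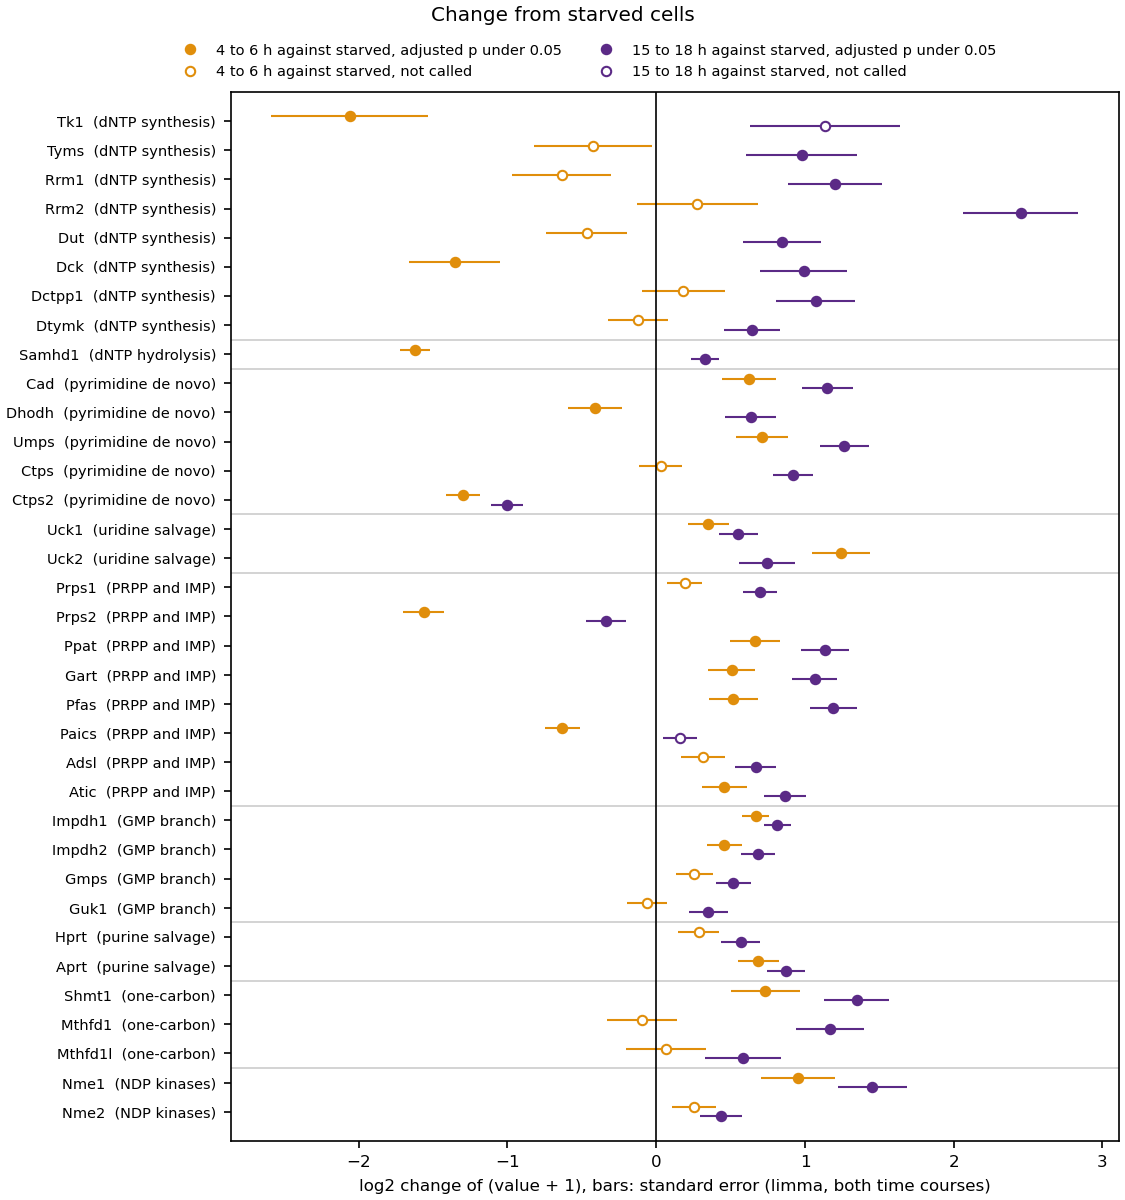
Log2 change from starved cells (horizontal axis) with its standard error for each of the 35 genes (rows, with their roles), at 4 to 6 h in orange and at 15 to 18 h in purple, from limma over both time courses; filled points have an adjusted p under 0.05. At 4 to 6 h the dNTP synthesis genes lie at or left of 0 apart from Rrm2 (0.28) and Dctpp1 (0.18), both not called, and at 15 to 18 h only Ctps2 and Prps2 of the 35 lie left of 0.

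At 15 to 18 h, 31 of the 35 genes were higher than in starved cells and 2 were lower, where 25.2% of all genes rose and 35.1% fell. The median log2 change was 0.85 for the 35 genes and -0.12 for all genes. The same counts, 31 and 2, were found at 19 to 23 h (26.6% and 37.8% of all genes) and at 25 to 27 h (24.4% and 37.6%), and 26 and 2 at 11 to 14 h (24.8% and 34.9%). All these comparisons share the 4 starved libraries. In Cycle 1 alone 33 genes rose and 1 fell at 15 to 18 h, and in Cycle 2 alone 20 rose and 3 fell. Of all 15895 genes 4094 rose and 5382 fell in Cycle 1 alone, and 3081 rose and 3986 fell in Cycle 2 alone.

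Rrm2, the small subunit of ribonucleotide reductase, had the largest rise. It lies on chromosome 12 at 25393106 to 25399011. Its starved values were 373 and 327 in Cycle 1 and 1425 and 1424 in Cycle 2, and the 8 libraries of whole hours at 15 to 18 h lay between 2806 and 5015 (median 3919). All 8 were above every starved library. The log2 change was 2.45 ± 0.39 (SE, adjusted p = 2.1e-06), with 3.73 in Cycle 1 and 1.18 in Cycle 2. Its promoter window is shown because it leads the S phase group; it holds neither kind of motif in these letters, and the same held for 6 of the 8 dNTP synthesis genes, the others being Tyms and Dtymk with an E-box:
Rrm2, chr12:24708004-24708303, forward strand: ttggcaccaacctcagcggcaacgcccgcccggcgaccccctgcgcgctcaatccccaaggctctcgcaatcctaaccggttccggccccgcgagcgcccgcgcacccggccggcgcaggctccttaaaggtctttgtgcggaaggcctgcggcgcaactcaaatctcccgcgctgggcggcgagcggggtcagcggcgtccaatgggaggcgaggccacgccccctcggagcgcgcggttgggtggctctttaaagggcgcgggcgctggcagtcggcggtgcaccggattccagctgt

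Rrm1, the large subunit that pairs with Rrm2, had a log2 change of 1.20 ± 0.32 at 15 to 18 h (adjusted p = 0.0015), from 1306 and 1305 in starved Cycle 1 and 3488 and 3366 in starved Cycle 2 to between 4049 and 5766. The groups did not overlap. Per 1000 bases of its longest coding transcript Rrm2 was at 159.6 and Rrm1 at 327 in starved Cycle 1, and at 2138 and 1399 at 15 to 18 h of the same course; in Cycle 2 they went from 649.6 and 858 to 1473 and 1072. The order of the 2 subunits, on this per-length scale, was thus turned round in both courses. Of the other dNTP synthesis genes, Dctpp1 (1.07), Dck (0.99), Tyms (0.98), Dut (0.85) and Dtymk (0.64) rose, and in Cycle 2 alone their changes were 0.37, 0.06, -0.0025, 0.14 and 0.26. Tk1 had a log2 change of 1.13 ± 0.50 and missed the threshold (adjusted p = 0.051).

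Nme1, Shmt1 and Umps again stood among the 5 largest rises. Nme1 lay between 2518 and 4149 at 15 to 18 h (log2 change 1.45 ± 0.23, adjusted p = 2.8e-06), Shmt1 between 233 and 526 (1.35 ± 0.22, adjusted p = 3.2e-06) and Umps between 894 and 1452 (1.27 ± 0.17, adjusted p = 8.7e-08). None of the 3 overlapped its starved values. Pfas (1.19), Mthfd1 (1.17), Cad (1.15), Ppat (1.13) and Gart (1.07) followed. The 2 genes that were lower were Ctps2, which lay between 242 and 302 against 519 to 585 in starved cells (-1.00 ± 0.11, adjusted p = 1.9e-09), and Prps2, between 153 and 218 (-0.34 ± 0.13, adjusted p = 0.028). The values of Prps2 overlapped the starved ones (210.4 to 257), and its call was lost by edgeR, in Cycle 1 alone and without any 1 of 6 single libraries: Cycle 1 at 0 h, and Cycle 2 at -1, 15, 16, 17 and 18 h. Paics (0.16, adjusted p = 0.22) was the remaining gene not called.

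At 25 to 27 h the 5 largest rises were Rrm2 (2.50 ± 0.41), Nme1 (1.54 ± 0.25), Shmt1 (1.51 ± 0.23), Tk1 (1.38 ± 0.53) and, at the same size, Umps and Rrm1 (1.28), with adjusted p-values from 1.9e-07 (Umps) to 0.024 (Tk1). Tk1 was now above every starved library, between 403 and 774. Its change was 2.46 in Cycle 1 and 0.31 in Cycle 2. Ctps2 (-0.87 ± 0.11) and Prps2 (-0.41 ± 0.14) stayed lower, and Dck (0.54, adjusted p = 0.12) was no longer called.

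Between 4 to 6 h and 15 to 18 h, a comparison that does not use the starved libraries, 28 of the 35 genes rose and 1 fell (33.5% and 21.2% of all genes). All 8 dNTP synthesis genes rose, as did Samhd1, all 5 pyrimidine genes and all 8 genes from PRPP to IMP. The median log2 change was 1.62 over the dNTP synthesis genes, 0.55 over the 5 pyrimidine genes, 0.53 over the 8 from PRPP to IMP and 0.24 over the GMP branch. The largest were Tk1 (3.19 ± 0.44, adjusted p = 2.7e-07), Dck (2.35 ± 0.26, adjusted p = 2.6e-09), Rrm2 (2.17 ± 0.34, adjusted p = 2.2e-06), Samhd1 (1.95 ± 0.09, adjusted p = 1.5e-18) and Rrm1 (1.84 ± 0.28, adjusted p = 1.2e-06). In Cycle 2 alone the first 4 of these changed by 1.83, 1.65, 1.31 and 1.71. Uck2 fell by 0.50 on the log2 scale (SE 0.16, adjusted p = 0.01), by 0.54 and 0.46 in the 2 courses. With scaling by the median of ratios 22 rose and 1 fell, and the share of rises among all called genes went from 61.2% to 48.2%.

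The hour at which the running mean first stayed at 1.5-fold of the starved mean gave the order of the groups in Cycle 1, as a description with no test. The median onset was 3.25 h for the 2 purine salvage genes, 3.75 h for the 6 genes from PRPP to IMP that had one, 4.5 h for 4 of the pyrimidine genes, 4.75 h for the GMP branch, 5.5 h for the one-carbon genes, 6.25 h for Uck1 and Uck2, 7.5 h for the NDP kinases and 9 h for the 8 dNTP synthesis genes, whose onsets ran from 4.5 h (Rrm2) to 12 h (Tk1 and Dtymk). Uck2 came first, at 1 h, followed at 2 h by Umps, Ppat, Aprt and Nme1. The groups overlap: Dhodh (12 h), Guk1 and Nme2 (13 h each) were as late as Tk1 or later, and Samhd1 came at 30 h. In Cycle 2, 11 of the 35 genes had such an onset, and of the dNTP synthesis genes Rrm2 alone, at 12 h. The order there was another: the median was 10.5 h for 2 pyrimidine genes, 13 h for 2 genes from PRPP to IMP and 19.5 h for 2 one-carbon genes. In Cycle 1, 32 had one, and Ctps2, Prps2 and Paics had none. The share of all genes with such an onset was not computed for either course. Under other settings 50 recomputed timing values moved and 92 did not.

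The 2 time courses did not start from the same level. In starved cells 22 of the 35 genes were higher in Cycle 2 and none lower (limma, adjusted p under 0.05; 0 lower at an unadjusted p under 0.05 too), where 14.9% of all genes were higher and 17.3% lower. Rrm2 had a mean of 350.0 in starved Cycle 1 and 1425 in starved Cycle 2, which is 4.07-fold, and Tk1 (2.83-fold), Tyms (2.67-fold), Rrm1 (2.62-fold) and Dck (2.48-fold) were next among the dNTP synthesis genes. Uck2 (2.23-fold), Mthfd1l (2.25-fold) and Nme1 (2.16-fold) also stood out. Samhd1 (0.96-fold), Impdh1 (0.98-fold), Impdh2 (1.02-fold) and Aprt (1.02-fold) were level. Genes of the cell cycle were higher in starved Cycle 2 as well: the starved means of Mcm5, a replication licensing gene, were 432 and 1099, those of Ccna2 797 and 2497 and those of Ccnb1, a mitotic cyclin, 113 and 415. Summed muscle, blood and neural markers were also higher in starved Cycle 2, and summed epithelial ones lower, as given above. The part of all these genes in the difference was not tested.

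**Figure D3:**
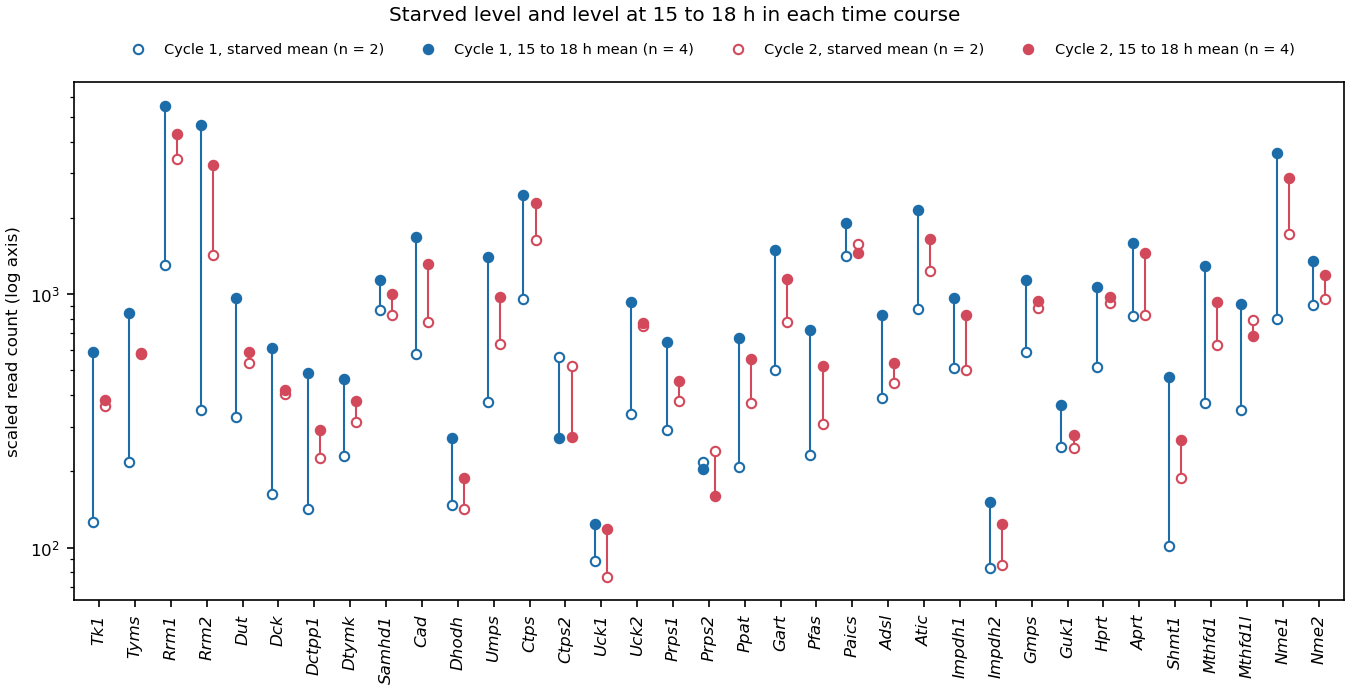
For each of the 35 genes, mean values in starved cells (open circles, n = 2) and at 15 to 18 h (filled circles, n = 4) in Cycle 1 (blue) and Cycle 2 (red), as scaled read count on a log axis. For most genes the open red circle lies above the open blue one while the filled red circle lies below the filled blue one, so the red lines are shorter.

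The signed log2 change from starved cells to 15 to 18 h was lower in Cycle 2 for 26 of the 35 genes and higher for none (limma, interaction of time and course; 0 higher at an unadjusted p under 0.05), against 14.2% and 13.6% of all genes. Among the 26 was Prps2, whose fall was larger in Cycle 2 (-0.10 and -0.58). The difference was -2.55 ± 0.15 (SE, log2) for Rrm2, -2.15 ± 0.25 for Tk1, -1.96 ± 0.19 for Tyms and -1.86 ± 0.12 for Dck, with adjusted p-values from 1.2e-05 (Rrm2) to 0.00026 (Tk1). Hours of the same course stand as replicates here and no course has a replicate, so these p-values do not measure a spread between courses. In Cycle 2 Tk1 had a mean of 361 in starved cells and 381 at 15 to 18 h, Tyms one of 579 and then 584, and Dck one of 402 and then 419.6. The level at 15 to 18 h was lower in Cycle 2 for 25 of the 35 genes and higher for none (limma; 0 higher at an unadjusted p under 0.05), against 10.8% and 8.49% of all genes, with differences of -0.53 for Rrm2 (adjusted p = 0.0028), -0.64 for Tk1 (adjusted p = 0.013) and -0.83 for Shmt1 (adjusted p = 0.00028) on the log2 scale. The 9 genes with no called difference were Samhd1, Dhodh, Ctps2, Uck1, Impdh1, Impdh2, Guk1, Aprt and Nme2. Aprt, for example, changed by 0.96 and 0.79, a difference of -0.16 ± 0.21.

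Where an enzyme is encoded by more than 1 gene, the copies were compared by their ratio; means of ratios are over every library of a window, changes and tests over its whole hours. Ctps and Ctps2 both make CTP from UTP; the log2 ratio of Ctps to Ctps2 was 0.76 in starved Cycle 1 and 1.65 in starved Cycle 2, and 3.17 and 3.07 at 15 to 18 h. The ratio rose by 1.92 over both courses (exact permutation test with labels exchanged within each course, p = 0.0044, adjusted p = 0.013 over 12 ratios tested). That p is the smallest the test can give. In this and the other pair tests, hours of the same course stand as replicates and no course has a replicate. The p-values of the pairs therefore do not measure a spread between courses. Prps1 rose (0.70 at 15 to 18 h) while Prps2 fell, and their log2 ratio went up by 1.76 at 4 to 6 h (exact permutation p = 0.01, the smallest possible, adjusted p = 0.015) and by 1.04 at 15 to 18 h (p = 0.0044, adjusted p = 0.013).

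Nme1 gained on Nme2, with a log2 ratio of -0.18 in starved Cycle 1 and 0.85 in starved Cycle 2 against 1.43 and 1.27 at 15 to 18 h (exact permutation p = 0.0044, adjusted p = 0.013). Both lie side by side on chromosome 11, Nme1 at 93818293 to 93829835, and the annotation holds a longer Nme2 record (93811133 to 93829607) that runs across Nme1, so reads between the 2 genes may be split uncertainly; 29.3% of the 50-base windows of Nme2 are also found elsewhere. The Uck2 to Uck1 ratio rose by 1.91 at 4 to 6 h in Cycle 1 and changed by -0.12 in Cycle 2 (exact permutation p = 0.08, adjusted p = 0.11). The Impdh1 to Impdh2 ratio changed by 0.21 at 4 to 6 h (exact permutation p = 0.16, adjusted p = 0.17). Of the windows of Uck1 44.1% and of Impdh2 57.2% have another place in the genome, the largest shares among the 35 genes, and their counts are uncertain to that extent.

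Ppat and Paics encode enzymes of the same purine path and lie head to head on chromosome 5, Ppat on the reverse strand at 77342274 to 77380603 and Paics on the forward strand at 77380332 to 77396534, so their first 272 bases overlap in NCBIM37. Ppat rose at 4 to 6 h (starved 198 and 217 in Cycle 1, 387 and 354 in Cycle 2; 359.5 to 501 at 4 to 6 h), while Paics fell (starved 1515, 1319, 1634 and 1522; 867 to 1022). The 2 courses gave the same directions. The log2 ratio of Ppat to Paics was -2.76 and -2.09 in starved Cycles 1 and 2 and -1.07 and -1.26 at 4 to 6 h, a rise of 1.29 (exact permutation p = 0.01, the smallest possible, adjusted p = 0.015); this pair was chosen after its values were seen. Reads were counted on both strands, so reads from the overlap cannot be assigned to either gene. Their start sites are 276 bases apart in GRCm38.p6, and their windows are shown because of this split, Ppat with a pair of E2F-type matches and Paics with an E-box:
Ppat, chr5:76951529-76951828, reverse strand: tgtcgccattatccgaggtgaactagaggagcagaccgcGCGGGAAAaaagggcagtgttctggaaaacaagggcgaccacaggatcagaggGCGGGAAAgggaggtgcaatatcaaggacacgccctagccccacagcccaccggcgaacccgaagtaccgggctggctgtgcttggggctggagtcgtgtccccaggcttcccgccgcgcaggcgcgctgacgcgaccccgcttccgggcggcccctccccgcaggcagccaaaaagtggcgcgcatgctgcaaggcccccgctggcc
Paics, chr5:76951052-76951351, forward strand: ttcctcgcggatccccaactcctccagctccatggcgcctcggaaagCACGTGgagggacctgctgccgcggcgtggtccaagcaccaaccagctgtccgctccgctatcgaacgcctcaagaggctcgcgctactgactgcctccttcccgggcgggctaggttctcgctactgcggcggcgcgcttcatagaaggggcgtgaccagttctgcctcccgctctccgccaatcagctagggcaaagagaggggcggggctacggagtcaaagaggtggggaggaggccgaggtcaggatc

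The remaining matches are shown with 15 bases on each side, or up to the end of the window, as the letters behind the counts above. They came from genes of different timing: Nme1, whose values were up at 4 to 6 h, Tyms, which was not called until 15 to 18 h, and Prps2, which fell. Nme1 has 2 windows, from 2 start sites:
Tyms, chr5:30073666-30073701, reverse strand: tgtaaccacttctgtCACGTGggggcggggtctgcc
Dtymk, chr1:93802062-93802097, reverse strand: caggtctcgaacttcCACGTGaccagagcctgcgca
Atic, chr1:71557134-71557169, forward strand: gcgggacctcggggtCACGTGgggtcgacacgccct
Impdh2, chr9:108560311-108560346, forward strand: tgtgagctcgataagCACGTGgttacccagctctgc
Nme1, chr11:93968034-93968069, reverse strand: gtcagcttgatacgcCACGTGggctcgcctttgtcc
Nme1, chr11:93968270-93968305, reverse strand: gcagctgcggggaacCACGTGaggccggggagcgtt
Prps2, chrX:167382700-167382731, reverse strand: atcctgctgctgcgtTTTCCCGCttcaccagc

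**Figure D4:**
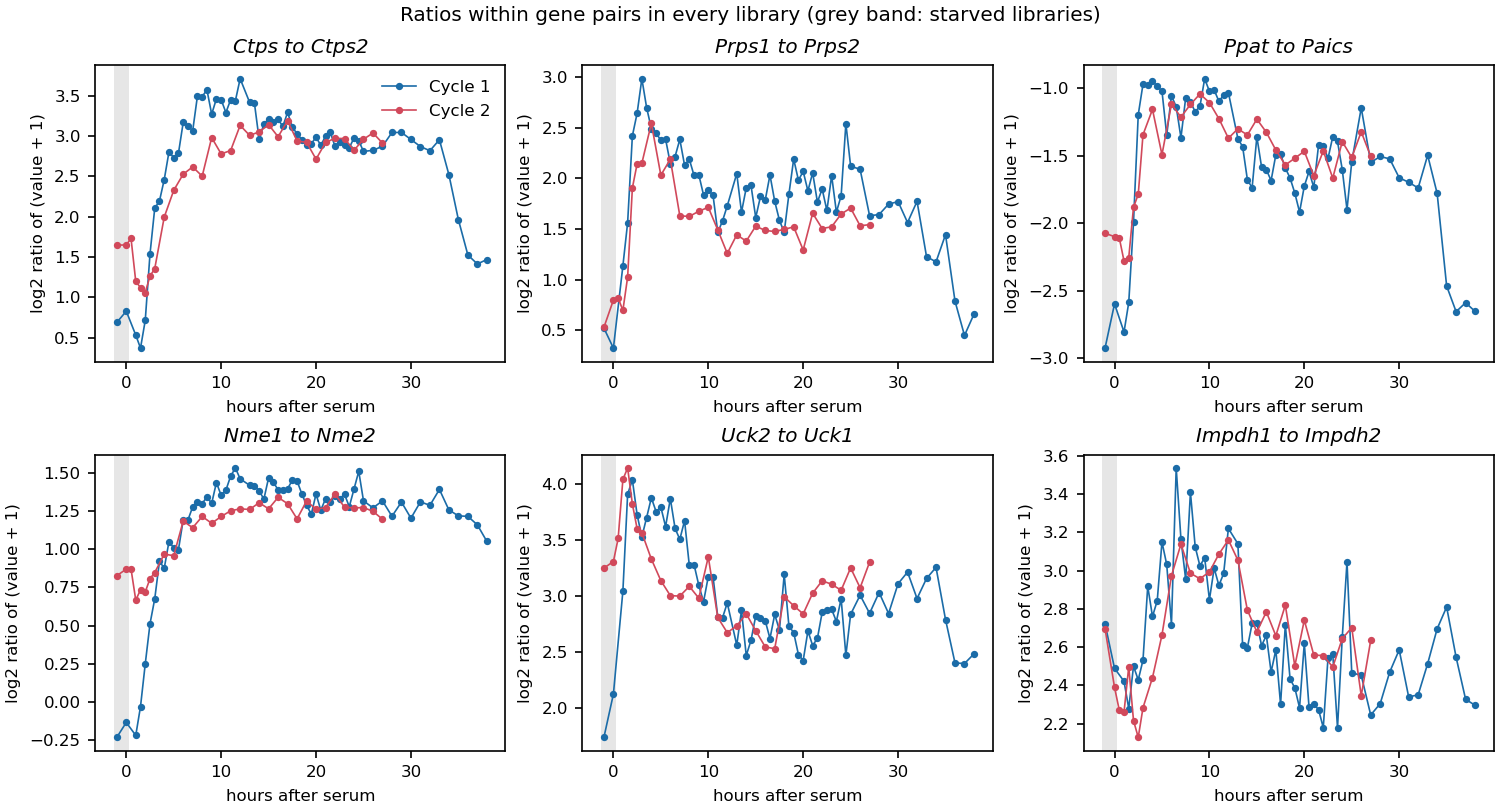
Log2 ratio of the values plus 1 of 6 gene pairs (vertical axes, each on its own range) against hours after serum (horizontal axis), 1 point a library, Cycle 1 in blue and Cycle 2 in red. The Ctps to Ctps2, Prps1 to Prps2 and Ppat to Paics ratios are above their starved values at 4 to 6 h in both courses, and in Cycle 1 come back down in the last hours. At 1 to 3 h at least 1 library lies below the starved values for Ctps to Ctps2 in each course and for Ppat to Paics in Cycle 2.

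The last hours of Cycle 1 have no counterpart in Cycle 2 and were not tested. In the 5 libraries at 34 to 38 h, 6 of the 35 genes lay wholly below their 5 libraries at 25 to 29 h and 3 wholly above, where 7.95% of all genes lay below and 15.7% above. Those below were Shmt1, Ppat, Umps, Ctps, Uck2 and Adsl. Ppat had a mean of 641 at 25 to 29 h and 399 at 34 to 38 h, and Umps went from 1375 to 873. The 3 above were Samhd1 (1236 to 1598), Prps2 (183 to 289) and Paics (1767 to 2097), each of them a gene that had fallen at 4 to 6 h. Rrm2 was at 4799 and then at 3018, with overlapping values. The Ctps to Ctps2 ratio ranged from 1.42 to 2.52 at 34 to 38 h, against 2.81 to 3.05 at 25 to 29 h, and the Ppat to Paics ratio from -2.66 to -1.78, against -1.55 to -1.14. The library at 24.5 h of Cycle 1 stood apart from its neighbours by a median of 0.37 (log2) over the 35 genes and 0.41 over 9112 genes, and is in none of these comparisons.

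Of 33 further genes of nucleotide and folate metabolism, 8 rose and 10 fell at 4 to 6 h, 19 rose and 10 fell at 15 to 18 h and 20 rose and 9 fell at 25 to 27 h; over all genes the shares were 21% and 40.4%, 25.2% and 35.1%, and 24.4% and 37.6%. Upp1, uridine phosphorylase, had the largest early rise (log2 4.13 ± 0.28, from 4.51 to 12.4 in starved cells to between 68.7 and 205), ahead of the nucleoside transporter Slc29a2 (2.10) and adenosine deaminase Ada (1.46); the largest early falls were Mthfs (-2.06), Dguok (-1.23) and adenosine kinase Adk (-0.90). At 15 to 18 h Upp1 (2.17) and Slc29a2 (1.63) rose, and Cmpk2 (-2.31), Mthfs (-1.04) and Cda (-1.02) were lowest, Cmpk2 with -4.30 in Cycle 1 and -0.31 in Cycle 2. Slc19a1, the folate carrier (1.51), Slc29a2 (1.50) and Phgdh (1.21) led at 25 to 27 h, with Cmpk2 (-3.82), Mthfs (-1.46) and Adssl1 (-1.19) lowest. From 4 to 6 h to 15 to 18 h Adk (1.29) and Mthfs (1.02) rose, and Cmpk2 (-3.56), Upp1 (-1.96) and Cda (-1.40) fell most. Changes of Mthfs, Cda and Adssl1 rest on low values, and those of Cmpk2 do so in part. Mthfs lay at 11.4 to 16.4 in starved cells and at 0.81 to 9.59 at 4 to 6 h. Cda lay at 7.5 to 29.7 in starved cells and overlapped that at 15 to 18 h (3.86 to 15.7). Adssl1 lay at 23.9 to 34.3 in starved cells and at 8.41 to 18.6 at 25 to 27 h. Cmpk2 lay at 100.7 and 93.9 in starved Cycle 1, at 9.54 and 10.7 in starved Cycle 2, and at 0 to 3.9 at 25 to 27 h. Upp1 resembled Uck2 in being higher at 4 to 6 h than at 15 to 18 h in both courses.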

How the data were processed

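Per the labels and the methods of the study, the authors called bases with Casava, aligned the single-end 50-base reads of the stranded mRNA libraries to mm9 with STAR and counted reads in exons, on both strands, with HOMER; versions are not given in the sources used here. The deposited values are signal: read counts scaled to the same total in every library, not divided by gene length. Where several transcripts shared a gene name the deposited row is their mean (3291 of 15895 rows, 9 of the 35 genes: Tk1, Tyms, Dut, Dtymk, Ctps2, Nme2, Mthfd1l, Samhd1 and Guk1). Of 96 columns, 95 were matched to a sample by name and 1 was not and was left out. Steps in the low values gave whole reads for 94.2% to 96.2% of them (within 0.1 of a step), hence the read totals in the report; intervals from depth would cover counting error only.

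The members and gene lists were chosen with earlier results of these data known. limma 3.58.1 (R 4.3.3) was run on log2(value + 1) over 62 libraries of hours present in both courses, with each hour a group, the 4 starved libraries 1 group and the course as a block (31 residual degrees of freedom). Windows are means of hourly coefficients, which treats the hours of a window as its replicates, and p-values were adjusted (Benjamini-Hochberg) over all rows. The difference between courses is the interaction in 12 libraries. The block pairs libraries of the same course: the deviations of libraries of the same course correlated with a median of 0.471 over 406 pairs of hours (from -0.198 to 0.91, 89.9% of them over 0.1; 9112 genes), so the same-course libraries share a shift for most hours but not for all. Ratios of gene pairs were tested by exact two-sided permutation within courses. Alternatives were another pseudocount, a filter, median-of-ratios scaling, no block, a variance trend, windows as groups, edgeR 4.0.16 on the whole reads, each course alone and leaving out single libraries. The fits were tested on simulated data. Positions come from GENCODE M1 on NCBIM37, promoter windows from RefSeq (GRCm38.p6, used only for these sequences). All 35 genes could be named, with full values for the 5 largest rises and 3 largest falls called in each of 4 comparisons; of the 33 further genes, the 3 largest each way, except that some values are not reported here.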

Additional observations from a re-analysis of the deposited data

Results flagged for a closer look

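The change from starved cells to 15 to 18 h differed between the time courses by the interaction test for 26 of the 35 genes, each with a lower signed value in Cycle 2. The difference, as log2 change in Cycle 2 minus Cycle 1, was -2.55 for Rrm2, -2.15 for Tk1, -1.96 for Tyms, -1.86 for Dck, -1.76 for Rrm1 and -1.41 for both Dut and Dctpp1, with -0.77 for Dtymk as the smallest of the dNTP synthesis genes. The one-carbon genes differed by -1.71 (Shmt1), -1.58 (Mthfd1l) and -1.23 (Mthfd1), Uck2 and Nme1 by -1.44 each and Umps by -1.28. Ppat (-1.11), Gart (-1.02), Hprt (-0.97), Prps1 (-0.89), Ctps, Pfas and Atic (-0.88 each), Gmps (-0.85), Adsl (-0.83), Cad (-0.77), Paics (-0.55) and Prps2 (-0.48) followed. Each difference is that of the level at 15 to 18 h less that of the starved level. For Rrm2 the starved difference (Cycle 2 minus Cycle 1) was 2.02 and the later one -0.53. The starved level was called higher in Cycle 2 for 22 of these genes, but not for Dtymk, Adsl, Paics and Prps2. Adsl, for example, differed by 0.21 when starved (adjusted p = 0.25, limma) and by -0.62 at 15 to 18 h (adjusted p = 0.002). Why the courses differed was not tested.

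Among the 4 starved libraries, 1 value of Samhd1 lay apart from the other 3 by 0.866 of the whole range, the Cycle 2 library just before serum (790.3 against 862 to 873). Chance gives such a gap in about 1 of 20 groups, and 35 genes were looked at.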

How the results depend on the processing

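Asking for 2-fold as well as the adjusted p left 1 rise and 5 falls at 4 to 6 h, 7 rises and 1 fall at 11 to 14 h, 11 and 1 at 15 to 18 h, 13 and 0 at 19 to 23 h, 14 and 0 at 25 to 27 h and 10 and 0 between 4 to 6 h and 15 to 18 h. The shares of all genes that pass this 2-fold rule were not computed. Fitting each course alone was chosen after seeing the data. edgeR on the whole reads, and Cycle 1 alone, each gave 1 fall at 15 to 18 h in place of 2 (Prps2 was lost). Cycle 2 alone gave 7 rises and 13 falls at 4 to 6 h, 16 and 6 at 11 to 14 h and 20 rises at 15 to 18 h. Of all 15895 genes, that fit had 2921 rises and 5209 falls, 2895 and 3665, and 3081 rises. Leaving out single libraries gave 8 to 16 rises at 4 to 6 h (8 without the Cycle 1 library just before serum) and 1 to 2 falls at 15 to 18 h (Prps2 was lost in 6 cases). Among changes called over both courses or in Cycle 2 alone, the sign turned in Cycle 2, at 4 to 6 h, for Ctps (-0.48), Gart (-0.018) and Mthfd1l (-0.27); at 11 to 14 h for Tk1 (-0.62), Tyms (-0.40), Dut (-0.11), Hprt (-0.048) and Mthfd1l (-0.37); at 15 to 18 h for Tyms (-0.0025) and Mthfd1l (-0.21); and at 19 to 23 h for Mthfd1l (-0.033). Changes called in neither turned too, such as that of Rrm2 at 4 to 6 h (-0.13). The cause was not tested. Without the replicate block (the pairing by course), 12 genes rose and 6 fell at 4 to 6 h. It was 29 and 2 at 15 to 18 h and 26 and 1 between the 2 windows. Of all 15895 genes, that fit had 2919 rises and 5823 falls, 3565 and 4969, and 4848 and 2840. Calls lost were Dhodh and Uck1 early, Guk1 and Mthfd1l at 15 to 18 h, and Adsl and Guk1 between the windows.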
